A study of Mus musculus with 2 samples.

Results

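The gene described here is Pax5, which encodes the transcription factor that commits lymphoid progenitors to the B cell lineage and keeps mature B cells committed. Binding of TCF12 around it was mapped by ChIP-seq, the sequencing of DNA recovered with an antibody to the protein, in the mouse B-cell lymphoma line CH12.LX (strain B10.H-2aH-4bp/Wts, female). The labels name no treatment. The series holds 1 group of 2 biological replicates, so no comparison between conditions exists. On the mm10 build, Pax5 lies on the minus strand of chromosome 4 from 44524748 to 44710694, and all peaks with a summit inside the gene or within 50 kb of either end were taken, from 44474748 to 44760694. Of the 35848 peaks in the optimal list, which the authors kept by the irreproducible discovery rate (IDR) step, 19 lay in this window. The relaxed lists that went into that step held 107 summits in the window for replicate 1 and 78 for replicate 2. A separate list of 23575 peaks on the mm9 build held 16 there. CH12.LX is a single line of lymphoma cells. The protein bound was the only readout, so neither Pax5 expression nor the line's B cell markers could be checked here.

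TCF12 (HEB) belongs to the E proteins, basic helix-loop-helix factors that bind as dimers to the E-box, CANNTG. E proteins and EBF1 act upstream of Pax5 in the network that specifies B cells, and PAX5 in turn activates genes of the B cell receptor and represses genes of other lineages and of plasma cells. Mouse Pax5 has alternative first exons, and an enhancer that works in B cells has been described in intron 5. Whether any peak below coincides with that enhancer was not tested.

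The summit sequences show what lay under the main peaks. All are mm9 sequence on the minus strand, the strand of Pax5, with 50 bases to either side of the summit, and every CANNTG is in capitals. CAGGTG is CACCTG read on the other strand. The first is the strongest peak, in intron 5 at chr4:44684048-44684148, whose summit window held no CANNTG. The others are the second strongest, in intron 6 at chr4:44637825-44637925, with a CAGATG at its summit; the one next in signal, in intron 1 at chr4:44718979-44719079, with a CAGCTG; and 3 weaker peaks with E-boxes of different kinds, in intron 5 at chr4:44681570-44681670 and chr4:44680378-44680478 and in intron 6 at chr4:44637202-44637302.
Strongest, intron 5: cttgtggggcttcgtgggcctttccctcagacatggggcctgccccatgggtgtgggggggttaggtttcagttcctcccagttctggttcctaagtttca
Second, intron 6: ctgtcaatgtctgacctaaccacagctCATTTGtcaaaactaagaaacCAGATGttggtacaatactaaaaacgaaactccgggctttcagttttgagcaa
Next, intron 1: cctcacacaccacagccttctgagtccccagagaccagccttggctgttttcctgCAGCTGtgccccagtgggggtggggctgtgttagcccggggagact
Intron 5, paired E-boxes: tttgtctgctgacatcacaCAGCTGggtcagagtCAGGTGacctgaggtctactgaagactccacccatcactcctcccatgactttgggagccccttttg
Intron 5, octamer: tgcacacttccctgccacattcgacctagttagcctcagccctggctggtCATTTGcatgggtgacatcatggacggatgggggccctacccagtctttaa
Intron 6, adjoining E-boxes: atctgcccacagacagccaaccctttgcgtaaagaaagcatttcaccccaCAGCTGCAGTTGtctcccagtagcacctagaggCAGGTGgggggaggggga

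TCF12 peaks were spread along the body of Pax5, with 3 that stood far above the others. Of the 19 optimal summits, 16 lay within the gene, 3 upstream of its 5' end and 0 past its 3' end. Signal, the authors' own value for each peak in units of their peak caller, ran from 20.5 to 271 with a median of 50.9, against a median of 35.0 over all optimal peaks. The 3 strongest, at 271, 181 and 172, held 46.2% of the summed signal of the window. The remaining 16 ran from 20.5 to 75.6. The top IDR score of 1000 was reached by 13 of the 19, against 53.9% of all optimal peaks, and the lowest score in the window was 551. Read depth is unknown, so no value here carries an interval for sequencing error.

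**Figure D1:**
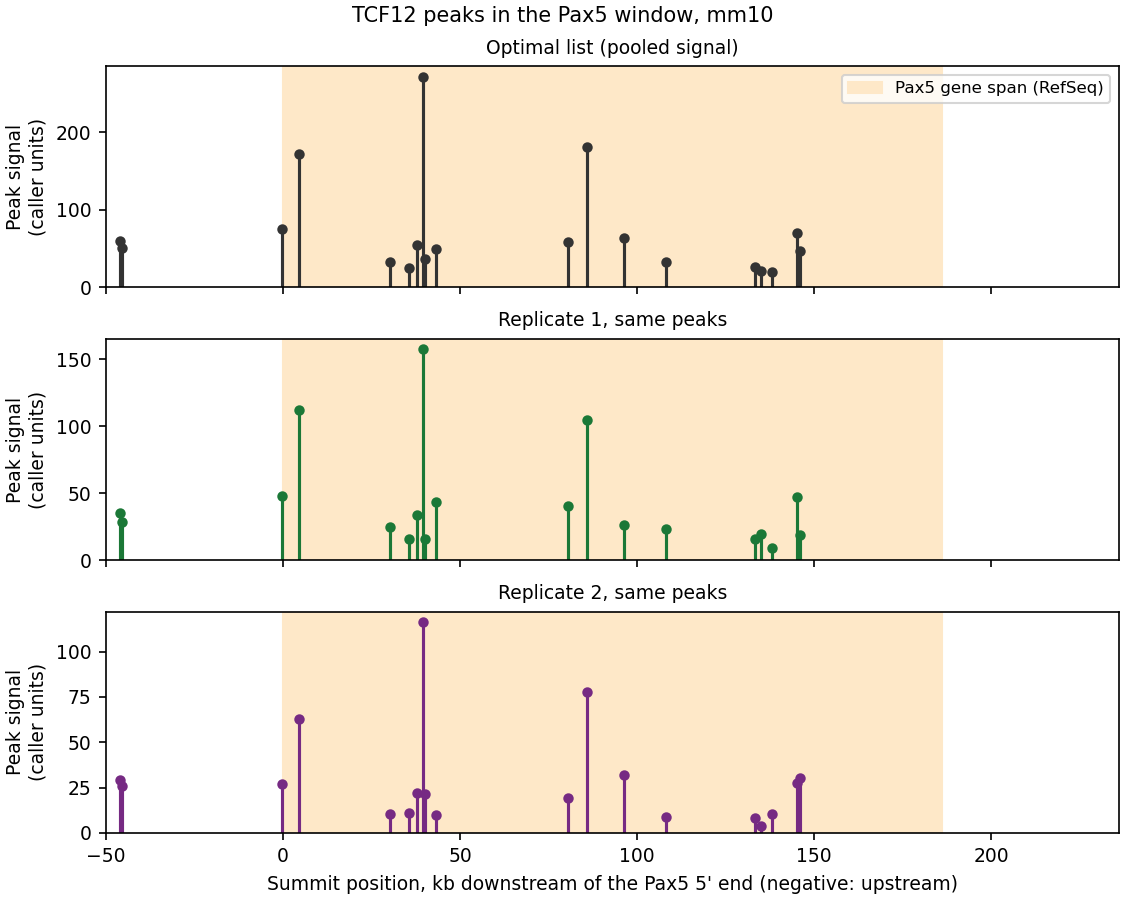
Signal of the 19 optimal peaks in caller units (vertical axes, each from 0) against the position of their summits in kb from the 5' end of Pax5 (horizontal axis), with the pooled signal on top and the signal of the same peaks in replicates 1 and 2 below. The same 3 peaks, at 39.5, 85.7 and 4.54 kb, are the highest in every panel, and no summit lies in the last 40.0 kb of the gene.

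The strongest peak, 39.5 kb downstream of the 5' end at chr4:44671087-44671395, had a signal of 157 in replicate 1 and 116 in replicate 2, and of 271 in the optimal list. It ranked 117 among the optimal peaks, and ranked 142 and 110 among the 300000 relaxed peaks of replicates 1 and 2. The second strongest, 85.7 kb downstream at chr4:44624915-44625078, had 105 in replicate 1 and 77.4 in replicate 2, and 181 in the optimal list. The third, 4.54 kb downstream at chr4:44706082-44706261, had 112 and 62.6 in replicates 1 and 2, and 172 in the optimal list. Both replicates placed these 3 peaks above all others of the window. They were also the only 3 of the 19 that were narrower than 384 bp, the width of 94.3% of all optimal peaks. Of the 752 optimal peaks at least as strong as the third, 94.7% were narrower than that, so this feature is shared by strong peaks in general.

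At the promoter of Pax5 a weaker peak was found. Its summit lay 248 bp upstream of the RefSeq 5' end, at chr4:44710750-44711133, and its signal was 47.9 in replicate 1, 26.7 in replicate 2 and 75.6 in the optimal list. It was the fourth strongest of the window, and 16.2% of all optimal peaks were stronger. The promoter sequence in RefSeq, from 250 bases before the 5' end to 50 bases from it (GRCm38.p6, which is mm10, chr4:44710645-44710944, minus strand), begins near this summit, which is its base 3. It is given because the peak overlaps it, and its only E-box, with the letters CACATG, is in capitals. That E-box is at bases 157 to 162, away from the summit. On mm9, no CANNTG lay within 50 bp of the summit of the promoter peak.
Pax5 promoter: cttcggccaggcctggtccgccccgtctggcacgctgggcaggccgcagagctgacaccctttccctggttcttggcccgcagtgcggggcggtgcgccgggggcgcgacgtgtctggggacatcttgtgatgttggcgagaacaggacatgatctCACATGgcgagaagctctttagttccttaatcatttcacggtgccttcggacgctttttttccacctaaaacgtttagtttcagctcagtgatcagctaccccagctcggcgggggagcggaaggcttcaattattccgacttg
Of 32544 RefSeq promoter windows of this length, 72.3% hold at least 1 CANNTG on either strand, 16.4% hold CAGCTG and 20.3% hold CACCTG. Neither of these last E-boxes is in the Pax5 promoter sequence shown above, and nothing about binding follows from letters that are not there.

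The tightest run of summits lay between 30.3 and 43.1 kb, around the strongest peak, with 6 summits in 12.8 kb that held 34.9% of the signal of the window. Its weaker members were a peak at 38.0 kb with 33.7 in replicate 1 and 21.7 in replicate 2, one at 43.1 kb with 43.3 and 9.75, one at 40.2 kb with 15.5 and 21.5, one at 30.3 kb with 25.1 and 10.6 and one at 35.5 kb with 16.1 and 10.8. In this run the replicates differed in order below the strongest peak. The peak at 43.1 kb was second in replicate 1 and last in replicate 2. Summits at 39.5 and 40.2 kb were only 684 bp apart.

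Further into the gene, after a stretch of 37.3 kb without an optimal summit, peaks were more scattered. On the near side of the second strongest peak, the one at 80.4 kb had 40.7 in replicate 1 and 19.4 in replicate 2, and 58.1 in the optimal list. Beyond it, the peak at 96.3 kb had 26.5 and 31.7, and 64.1 in the optimal list, and the one at 108 kb had 32.5. At 96.3 kb replicate 2 was the higher. The ratio of replicate 1 to replicate 2 there was 0.838, against a median of 1.66 over all optimal peaks. A last group lay between 133 and 146 kb. Of its 5 peaks, the pair at 145 and 146 kb was the strongest. The first of the pair had 47.0 in replicate 1 and 27.5 in replicate 2, and 70.0 in the optimal list; the other had 18.8 and 30.3, and 47.1 in the optimal list. Both had the top IDR score, and the other 3, at 133, 135 and 138 kb, had 26.9, 21.2 and 20.5. The last 40.0 kb of the gene and the 50 kb past it held no optimal summit.

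Both upstream peaks other than that of the promoter lay at the start of the next gene. Their summits, 45.4 and 46.0 kb upstream of Pax5, were 424 bp upstream and 112 bp downstream of the 5' end of Zcchc7, which encodes a zinc knuckle protein of nuclear RNA surveillance and is transcribed away from Pax5. The first had 28.4 in replicate 1 and 25.7 in replicate 2, and the other 34.9 and 29.2. The ETS motif CCGGAAGT, searched on both strands, begins 8 bp downstream of the Zcchc7 5' end, on the plus strand at chr4:44756566-44756573, and 3.92% of RefSeq promoter windows hold it. Besides Pax5 and Zcchc7, the RefSeq genes that touch the window are the microRNA gene Mir5120, the long non-coding RNA genes Gm12462 and 5730488B01Rik and the pseudogene Gm12463. None of these spans an optimal summit. The nearest summit to Gm12462 was 821 bp upstream of its 5' end, that of the peak at 30.3 kb, and the summit at 4.54 kb lay 1047 bp outside 5730488B01Rik.

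All 19 peaks overlapped a relaxed peak in both replicates by at least 1 bp, where 97.1% of all optimal peaks did, so the count at Pax5 is near the background. Among the strongest 35848 relaxed peaks of each replicate, as many as the optimal list holds, 2 of the 19 lacked a partner in 1 replicate. The peak at 135 kb was then found in replicate 1 and the one at 138 kb in replicate 2. Replicate 1 had the higher signal at 15 of the 19 peaks and replicate 2 at 4, while 85.7% of all optimal peaks were higher in replicate 1. The median ratio of replicate 1 to replicate 2 was 1.55 in the window and 1.66 over all optimal peaks, and since no scaling to depth is stated, nothing about binding is taken from these ratios. Ratios in the window ran from 0.619, at the 146 kb peak, to 5.59, at the 135 kb peak, whose signal was 19.7 in replicate 1 and 3.52 in replicate 2. Spearman's rho between the replicates was 0.630 over the 19 peaks and 0.697 over all optimal peaks in both, as a description across peaks that share their libraries.

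**Figure D2:**
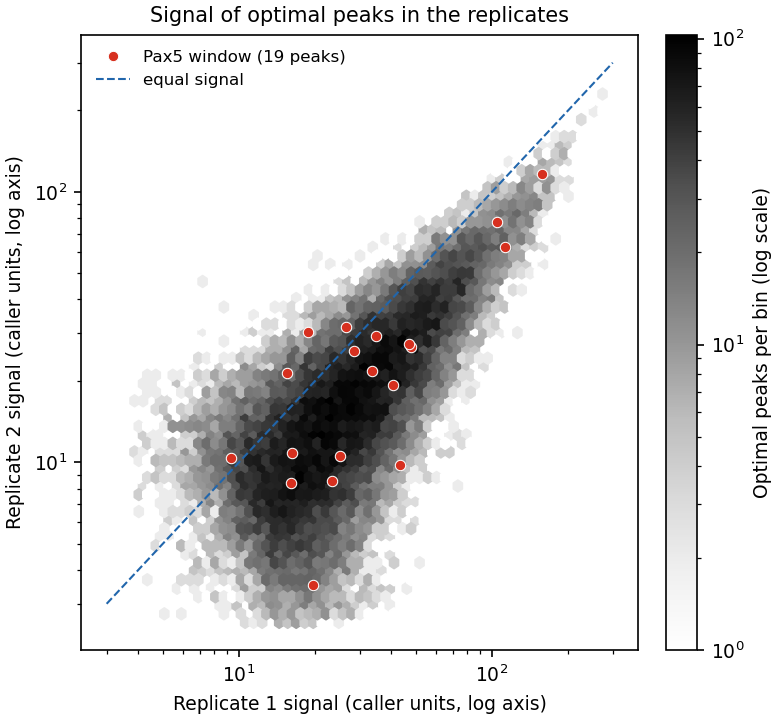
Signal of optimal peaks in replicate 1 (horizontal, log axis) and replicate 2 (vertical, log axis), in caller units. Red points are the 19 peaks of the Pax5 window, grey bins the 34817 optimal peaks found in both replicates, and the dashed line marks equal signal. The red points lie within the grey cloud, 15 of them below the line.

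The conservative list of the authors gave a slightly different set. It held 23 summits in the window, of which 18 were those of optimal peaks and 5 were not. The 5 lay at 2.19, 2.39, 41.9, 86.3 and 145 kb, the last overlapping an optimal peak, and the highest among them, at 41.9 and 86.3 kb, had signals of 51.8 and 40.9. Those at 2.19 and 2.39 kb had 8.73 and 22.5. Of the optimal peaks, 18 of 19 overlapped a conservative peak, against 83.6% of all optimal peaks, and the exception was that at 135 kb. In the relaxed lists, 84 summits of replicate 1 and 59 of replicate 2 overlapped no optimal peak, with median signals of 5.27 and 3.86, and 24 of those 84 overlapped a relaxed peak of replicate 2.

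Against other genes, Pax5 stood high in its number of peaks and in their strength. Windows with the same flanks were built for 21631 protein-coding genes, and 74.1% of them held at least 1 optimal summit. The Pax5 window held 19 summits, against a median of 3 over all windows, and 1.29% of windows held more. Windows differ in length, and per 100 kb Pax5 had 6.64 summits, against a median of 2.18, with 16.6% of windows higher. Among 1331 other windows within 25% of its length, from 214 to 357 kb, the median was 3 summits, 33 windows held more than Pax5, 13 held a stronger peak and 15 a higher summed signal. Counting the gene span alone, Pax5 had 16 summits and 57 genes had more. These are ranks among genes of the same 2 libraries with no test, windows of neighbouring genes overlap, and the rule chose Pax5 as a gene and not by its peaks.

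**Figure D3:**
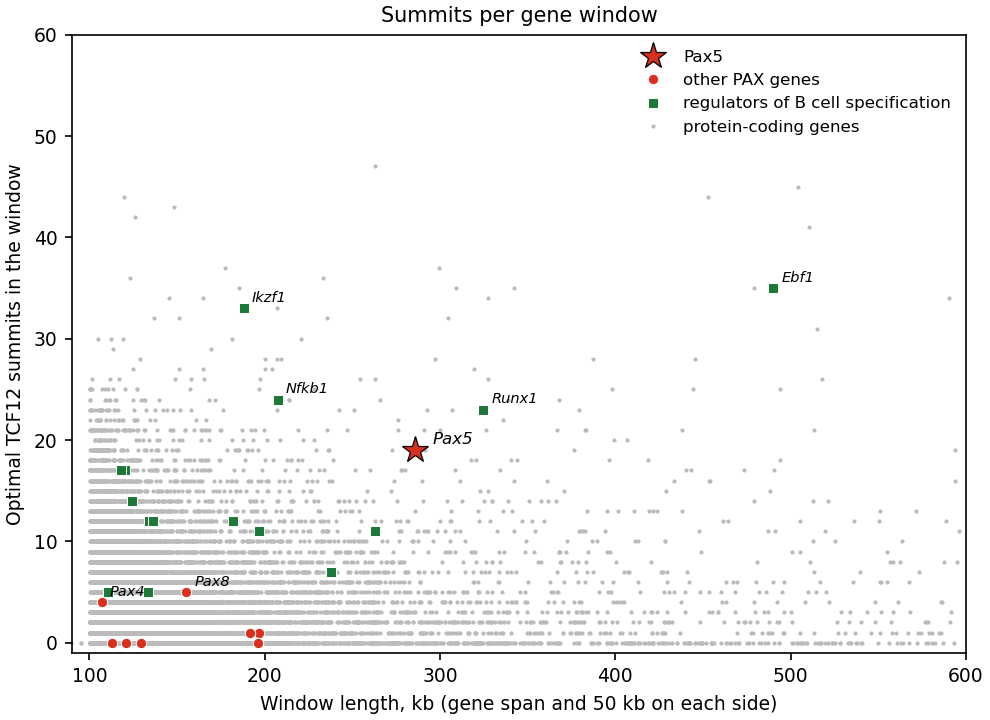
Number of optimal summits (vertical axis) against window length in kb (horizontal axis) for protein-coding genes, with Pax5 as a star, the other PAX genes in red and the listed regulators of B cell specification in green. Axes end at 600 kb and 60 summits, which leaves out 227 of 21631 windows. Pax5, with 19 summits, lies above the other 8 PAX genes, which have at most 5.

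The other members of the PAX family, paired-domain factors that mostly shape organs outside the blood, had fewer peaks than Pax5 or none. In the same kind of window, 5 of the 9 family members including Pax5 held an optimal summit, or 55.6%, against the 74.1% of all genes. Pax8, a thyroid and kidney factor, had 5 summits with a strongest signal of 45.4. Pax4, a factor of pancreatic islet cells, had 4 with a strongest of 77.6. Pax7 and Pax2 had 1 each, with signals of 35.7 and 20.4, and Pax1, Pax3, Pax6 and Pax9 had 0. The median over the other 8 was 0.254 summits per 100 kb, against 6.64 for Pax5 and 2.18 over all genes. Pax4 and Pax8, with 3.74 and 3.22 per 100 kb, lay above that value over all genes.

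Genes known to act on or with Pax5 in B cell specification also carried many peaks. All 15 listed genes held a summit, where 74.1% of all genes did, and their median was 7.14 per 100 kb, against 2.18 over all genes. Density was higher than at Pax5 in 9 of the 15, and 4 had at least as many summits. The strongest signals were 219 at Nfkb1, an NF-kappaB subunit gene, 205 at Irf8 and 160 at Irf4, interferon regulatory factor genes of lymphoid and myeloid cells, and 158 at Mef2c, a gene needed for B cell proliferation. Each of these was below the 271 of Pax5. These signals are for windows with 50 kb on each side, and the strongest peaks of Irf8 and Irf4 lay upstream of the genes themselves. Ebf1, which encodes the factor that acts with E proteins upstream of Pax5, had 35 summits in a window of 490 kb, or 7.14 per 100 kb. Ikzf1, the Ikaros gene, had 33 in 188 kb, or 17.6 per 100 kb.

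Known targets of PAX5 carried peaks as well, whether PAX5 activates or represses them. Of the genes it activates, all 16 listed held a summit, against 74.1% of all genes, with a median of 6.57 per 100 kb, against 2.18 over all genes. Among them, the strongest signal was 304 at Ikzf3, an Ikaros family gene, 190 at Id3, the gene of an inhibitor of E proteins, and 182 at Spib, an ETS factor gene. Density was lowest at Cr2, Bach2 and Fcer2a, with 2.14, 2.46 and 2.63 per 100 kb, near the value over all genes. Of the genes PAX5 represses, all 10 listed held a summit, with a median of 7.08 per 100 kb, to be set against the same 74.1% and 2.18. Emb had the fewest, with 1 summit, or 0.65 per 100 kb. The highest signals were 145 at Jchain, which encodes the joining chain of antibodies, 135 at Cd28, a T cell costimulatory receptor gene, 133 at Xbp1, a plasma cell factor gene, and 124 at Notch1, a receptor gene of T cell fate. Summits within 50 kb can belong to neighbouring genes, and with flanks of 10 kb 8 of the 10 repressed genes held one, against 61.1% of all genes.

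The 5 windows most like that of Pax5 in number of summits and summed signal, among those within 25% of its length, were those of Fnbp1, Zzef1, Fchsd2, Arhgef10l and Itsn1. Likeness was the sum of the absolute log2 ratios of both measures, and ran from 0.177 at Fnbp1, with 21 summits, to 0.326 at Itsn1, with 19. The summed signal was 1351 at Pax5 and from 1078 to 1427 at these genes. Their strongest peaks ran from 149 to 252, below the 271 of Pax5.

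On mm9, where exons were annotated, most peaks of the window lay in the large introns of Pax5. The GENCODE gene lies on chromosome 4 from 44544017 to 44724318, with 10 exons in transcript Pax5-001. The 300 bases of the RefSeq promoter occur once on mm9 chromosome 4, at 44723517 to 44723816, which places the RefSeq 5' end 752 bp inside the GENCODE first exon and lets distances be counted from the same base in both builds. Of the 16 mm9 summits, 13 lay in introns, with 5 in intron 5, 4 in intron 6, 2 in intron 8 and 1 each in introns 1 and 7. A further summit lay in exon 1, that of the promoter peak, and 2 lay upstream of the gene. The exons are 65 to 1084 bp long in a gene of 180 kb, so most positions inside the gene are intronic. The share of all mm9 peaks in introns is not given here. Intron 5, which is 33.7 kb long, held 40.1% of the summed mm9 signal of the window, and its strongest peak, at 492, ranked 99 in the mm9 list. The peaks of intron 6 and intron 1 that come next had 230 and 207. All 5 summits of intron 5 also lay within the GENCODE span of Gm12462, a non-coding gene on the other strand from 44677287 to 44698219. The summit in intron 1 lay 2151 bp upstream of an alternative first exon, that of transcript Pax5-007 from 44716243 to 44716878.

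Distances from the RefSeq 5' end matched those on mm10. Of the 16 mm9 summits, 14 had an optimal summit at the same distance within 100 bp, with a largest difference of 39 bp. The other 2, at 41.9 and 86.3 kb, had a conservative summit there instead, so that all 16 had a conservative partner. The 5 optimal peaks with no mm9 partner had signals from 20.5 to 33.2.

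**Figure D4:**
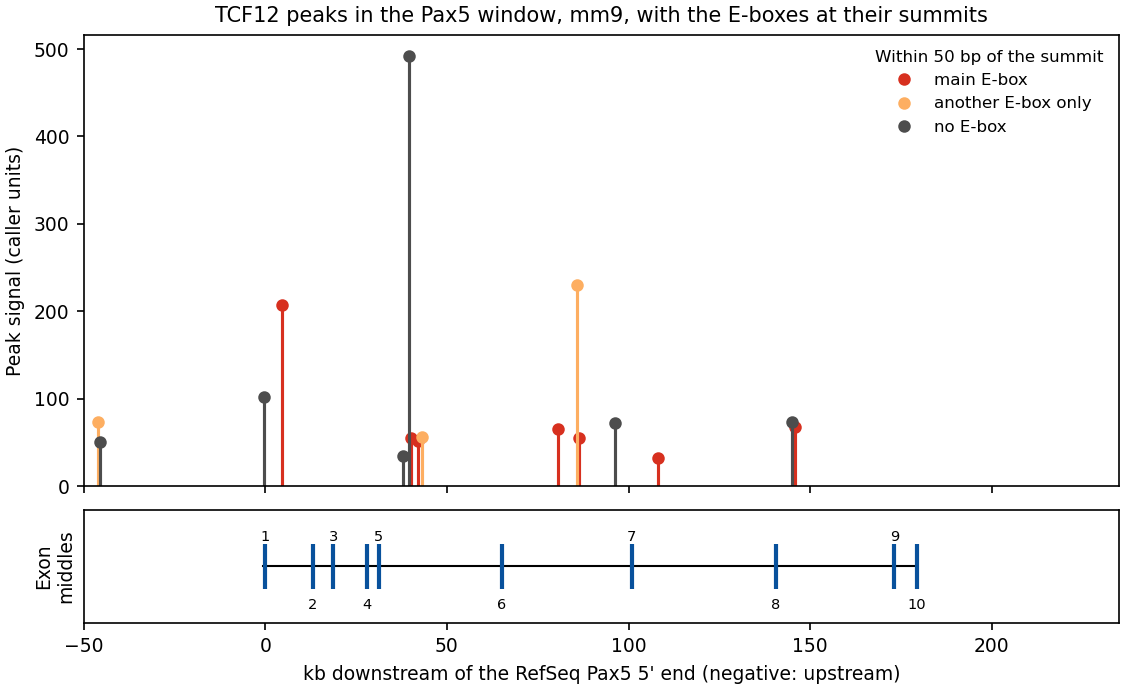
Signal of the 16 mm9 peaks in caller units (vertical axis, from 0) against distance from the RefSeq 5' end of Pax5 in kb, coloured by the E-boxes within 50 bp of the summit (red for CAGCTG or CACCTG, orange for another CANNTG only, grey for none), above the middles of the 10 exons of Pax5-001. The highest peak, at 492 in intron 5, is grey, and all 7 red peaks lie in introns, as do 13 of the 16 peaks.

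CAGCTG or CACCTG, E-box forms known to be bound by E proteins, lay within 50 bp of 7 of the 16 summits. This is 43.8% (95% Wilson interval 23.1 to 66.8, counting error only), against 31% of the 23572 mm9 peaks on chromosomes 1 to 19 and X, which lies inside that interval. The interval treats the 16 peaks as independent draws, which peaks of 1 window need not be, and no test was run. With peaks within 1 kb of a protein-coding gene's start left out, the E-boxes were at 7 of 13 Pax5 peaks and at 39.6% of all. Any CANNTG was found at 10 of the 16, or 62.5%, against 52.1% of all mm9 peaks. All 7 peaks with CAGCTG or CACCTG were intronic. The 3 outside introns, which lay near the starts of Pax5 and Zcchc7, had neither. Over all mm9 peaks too, the share was lower with peaks near gene starts included, at 31%, than without them, at 39.6%. Signals of the 7 peaks with these E-boxes ran from 32.4 to 207, with a median of 54.8, and the median of the 9 without was 73.3.

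The 3 strongest peaks differed in their E-boxes. At the strongest peak, CACCTG and CAGCTG were 57.5 and 114.5 bp from the summit, inside the peak but outside the summit window. Both are shown in capitals on the minus strand, the nearer one reading CAGGTG there, with 10 bases to either side, at chr4:44684143-44684168 and chr4:44684200-44684225.
Nearer E-box: ttgaagaggcCAGGTGgtctcttgtg
Outer E-box: atcatcgattCAGCTGagaccccccc
The second strongest peak had CAGATG centred 0.5 bp from its summit and CATTTG at 20.5 bp, as its sequence above shows, and no CAGCTG or CACCTG anywhere in the peak. The third had its CAGCTG at 7.5 bp. In intron 5, the peak at 41.9 kb had CAGGTG and CAGCTG 13.5 and 28.5 bp from its summit, and the peak at 40.2 kb had CACCTG at 20.5 bp. A pair of adjoining E-boxes, CAGCTG and CAGTTG, lay at the summit of the intron 6 peak at 86.3 kb, with CAGGTG at 35.5 bp. The remaining peaks with CAGCTG or CACCTG within 50 bp were those at 80.4 kb, 108 kb and 146 kb, with the nearest such E-box at 38.5, 30.5 and 31.5 bp. The intron 5 peak at 38.0 kb had a CACCTG just outside the summit window, at 55.5 bp.

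Other motifs were sparse. The octamer ATGCAAAT, a site of OCT factors, lay at 1 of the 16 summits, the one at 43.1 kb, where its 8 bases, read on the other strand, overlap a CATTTG by 5 of their letters, and was found at 2.25% of all mm9 peaks. The RUNX motif TGTGGT lay at 4 of 16, or 25%, against 11.4% of all, and these included the peaks of introns 6 and 1 with signals of 230 and 207. An ETS-IRF motif, GGAANNGAA, lay at 3 of 16, or 18.8%, against 5.18%, among them the strongest peak, 21 bp from its summit. IKZF TGGGAA and CTCF AGGNGGCA were found at 1 peak each, against 8.31% and 3.52% of all, the CTCF match at the promoter peak. The motifs for EBF1 (TCCCNNGGG), PU.1 (GAGGAAGT), other ETS factors (CCGGAAGT), NF-kappaB (GGGANTTTC), AP-1 (TGANTCA), CREB (TGACGTCA), FOXO (TGTTTAC) and STAT (TTCNNNGAA) were at 0 of 16, each found at 0.751% to 7.64% of all mm9 peaks. Both strands were searched, and counts this small describe the 16 windows and no more.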

How the data were processed

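TCF12 ChIP-seq peaks were analysed for 2 biological replicates of CH12.LX, numbered as in the labels. Per the deposited file descriptions, the authors called relaxed peaks on each replicate and on pooled reads against a control alignment, applied the IDR step to give the optimal and conservative lists on mm10, and derived the mm9 list from 2 alignments. The signal and the IDR score of each peak are the authors' deposited values. For aligner, peak caller and signal scaling, nothing is given in the sources used here, and neither control reads nor depth were analysed here. The replicates come from separate biosamples of 1 line, and no p-value was computed.

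Python 3.11.15 with numpy 2.4.6, pandas 2.3.3 and scipy 1.17.1 counted summits (start plus offset, written from 1) in windows of the gene span with 50 kb on each side. An optimal peak was paired with the strongest relaxed peak overlapping it by at least 1 bp. Gene spans and promoter sequences came from RefSeq GRCm38.p6, exons and peak sequence from GENCODE vM1 and NCBIM37 (mm9), and no coordinate was converted. Gene symbols of all 50 listed genes matched. The tolerance of 100 bp for equal distances was chosen after seeing the data, as was the choice of sequences shown. The window, gene lists, motifs and alternatives were chosen with earlier results of these data known. Named were all peaks of the window, all PAX genes and neighbours, and the 4 genes of each other list with the strongest peaks, to which Ebf1 and Ikzf1 were added after their values were seen. For 1 gene so chosen, the result is not reported here. The window count, peak pairing and motif search were tested on simulated data.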

Additional observations from a re-analysis of the deposited data

How the results depend on the processing

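Of 32 alternative values, 30 kept within 1.5 times their main value, within its interval or within the spread between replicates. The number of optimal summits in the Pax5 window, 19, was 14 at an IDR of 0.01 or less, 16 in the gene span alone, 17 with flanks of 10 kb, 19 with overlapping peaks merged and 23 in the conservative list. It was 22 and 23 among the strongest 35848 relaxed peaks of replicates 1 and 2 alone. The strongest signal, 271, was 116 to 157 in 1 replicate alone, and over the window the pooled signal had a median of 0.982 times the sum of both. The E-box share of 43.8% was 25% within 25 bp, 56.3% within 100 bp and 36.4% among mm9 peaks of at least median signal, against 18.3%, 43.9% and 32.8% of all mm9 peaks. Counted anywhere in the peak, the share was 56.3%, near the 52.4% of all mm9 peaks. Its value within 25 bp counted as kept only through the wide interval, from 23.1 to 66.8. No paired analysis was possible because the series has 1 group. Unknown depth limits weak peaks, and mm9 values cannot be split by replicate.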
